A study of Brassica napus with 8 samples.

Results

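Growing rapeseed seedlings 48 h into germination were compared with maturing seed labelled 50 DPA, using 4 of the 8 RNA sequencing libraries of the series (2 per tissue). Rapeseed (Brassica napus) is an oil crop that carries an A and a C subgenome, and all libraries came from the cultivar Zhongshuang 11. Seed after 48 h of germination was set against seed at 50 DPA, with no difference in treatment or genotype named in the labels. The libraries were assigned to their tissues by their labels. The other 4 libraries, from dry seed and young leaf, entered the estimate of the spread between libraries and served as an outside view of the genes that differed. Per the labels' protocols, polyadenylated RNA was sequenced as paired reads of 150 bases. Nothing in the labels ties the pair of libraries from a tissue to separate plants or harvests. The p-values therefore cover the spread between these libraries only, which may be technical. Whether both tissues were collected, prepared and sequenced together is not given in the sources used here. The germinating seed libraries were numbered apart from those of the other tissues in the series, and their labels are styled differently. Any difference in handling between them would coincide with the comparison and could not be told apart from the tissue difference.

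In the later part of its development a rapeseed embryo fills its cells with storage proteins and with oil held in oil bodies, and then makes proteins that protect it during drying. After water uptake the stored proteins and oil are broken down, oil carbon passes through the glyoxylate cycle, cells expand and divide, and the seedling builds its photosynthetic apparatus. The files give genes by ID only. Of the 106059 IDs, 0 were found in the available gene table, which is for a different rapeseed assembly (Da-Ae), so no ID could be tied to these processes and the tissue labels could not be checked against marker genes. In whole seeds, fewer cells of a type and less RNA per cell cannot be told apart.

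Total counts were 55721357 and 40730533 in the germinating seed libraries and 33861108 and 36535168 in the 50 DPA seed libraries. Most counts above 0 were even numbers (81.3% to 84.8% per library here), as when each mate of a pair is counted on its own, so 2 counts are taken below as about 1 read pair. Levels are CPM (counts scaled to a fixed library total) on the TMM scale, which scales libraries as if most genes were unchanged. Among genes with a mean of at least 10 CPM, the 2 germinating seed libraries differed by a median of 0.11 on the log2 scale and the 2 libraries of 50 DPA seed by 0.11.

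Transcripts were spread over many genes in germinating seed and held by few in 50 DPA seed. In the germinating seed libraries 3173 and 3233 genes were needed to reach 50% of all counts, against 181 and 189 genes in the 50 DPA seed libraries. The 10 most abundant genes took 2.09% ± 0.0571 of germinating seed counts and 21.0% ± 0.151 of 50 DPA seed counts (SD, n = 2). The highest single gene stood at 3725 and 3495 CPM in germinating seed and at 41724 and 40530 CPM in 50 DPA seed. The groups did not overlap in any of these measures, but with 2 libraries per tissue the smallest exact permutation p is 0.333. For 90% of counts the gap was smaller, at 19867 ± 96.2 genes in germinating seed and 12397.5 ± 21.9 genes in 50 DPA seed.

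**Figure D1:**
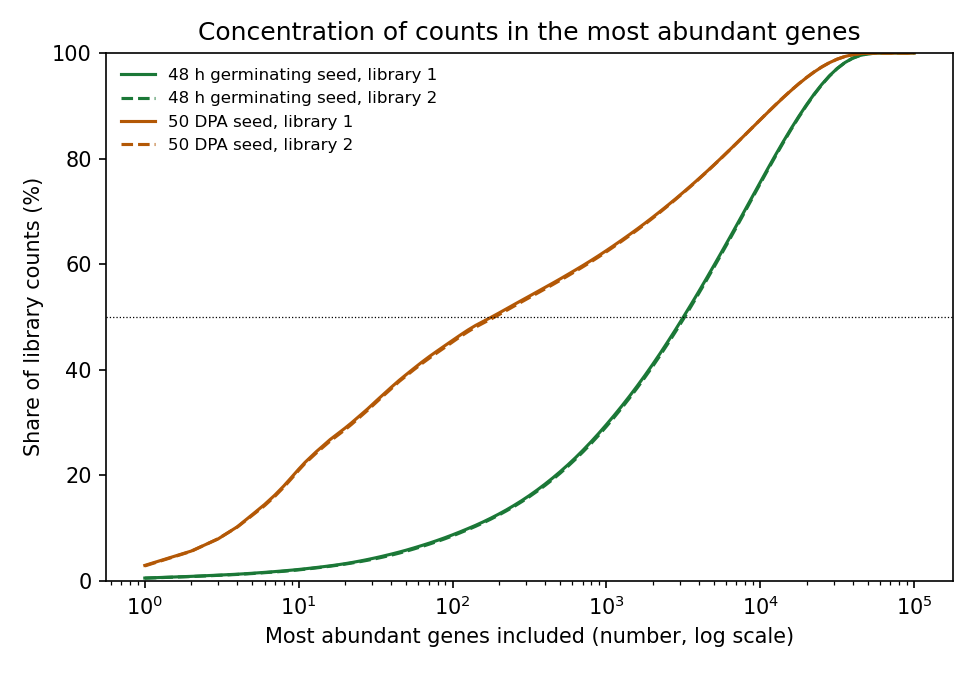
Share of library counts (%, vertical axis) taken by the most abundant genes (number, logarithmic horizontal axis), 1 line per library. The 50 DPA seed lines cross the dotted 50% line at 181 and 189 genes and the germinating seed lines at 3173 and 3233.

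Of 59062 genes tested, 23126 were higher and 17345 were lower in germinating than in 50 DPA seed (edgeR quasi-likelihood test, adjusted p under 0.05). These are 39.2% and 29.4% of the genes tested, 68.5% together. More than 2-fold changes were called for 15125 higher genes (25.6%) and 11144 lower genes (18.9%) by the same model with a 2-fold minimum (edgeR glmTreat, adjusted p under 0.05). The higher genes took 70.8% ± 0.0493 of counts in germinating seed and 12.0% ± 0.0937 in 50 DPA seed. The lower genes took 15.9% ± 0.0376 in germinating seed and 81.2% ± 0.143 in 50 DPA seed (SD, n = 2). These shares describe sets chosen on the same libraries.

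Directions were relative to the scale. With total counts alone in place of TMM factors, the median log2 change of all genes was 1.27 in place of 0.31, a shift of 0.96. The share of higher genes among the changed ones was 57.1% on the TMM scale and 77.4% on total counts. Of the higher genes, 22011 (95.2%) were also higher with DESeq2 size factors, upper-quartile factors and total counts alone. Of the lower genes, 10207 (58.8%) were lower on all 4 scales, and 1414 were called higher with total counts alone. Upper-quartile factors and total counts shifted the median log2 change by 0.087 and 0.96, and kept all 23126 higher genes. DESeq2 size factors shifted it by -0.095 and kept all 17345 lower genes. Both shares follow the shifts of the scales tried, so they do not show rises to be firmer than falls.

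**Figure D2:**
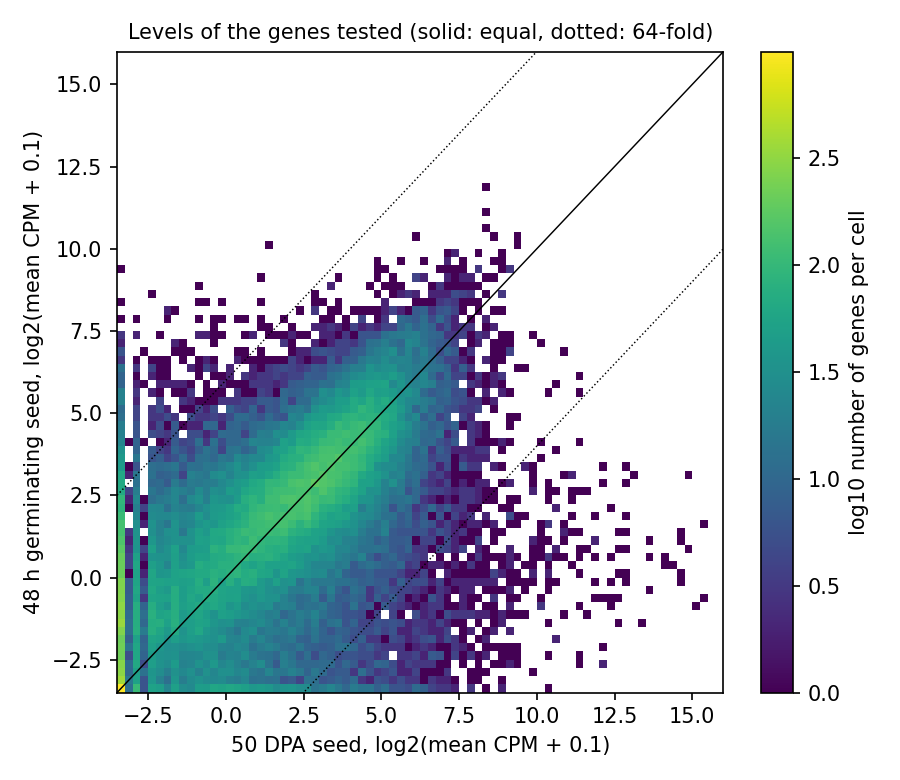
Mean level of each gene tested, as log2(mean CPM + 0.1), in germinating seed (vertical axis) and in 50 DPA seed (horizontal axis), coloured by the number of genes per cell of the grid on a log10 scale. Genes below the lower dotted line (64-fold) reach a mean of 40896 CPM in 50 DPA seed, whereas those above the upper dotted line reach at most 1048 CPM in germinating seed.

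On the TMM scale, changes of 64-fold or more were more often falls than rises, an order that turned at 64-fold but not at 256-fold with total counts alone. The falls included the most abundant transcripts. For these counts, a tissue with 0 counts in both libraries was taken at a floor of 6 counts (3 read pairs) per library, 0.0943 CPM in germinating seed and 0.247 CPM in 50 DPA seed. At 64-fold or more, 744 genes were higher and 1625 lower in germinating seed. At 1024-fold or more, 28 were higher and 246 lower. The unequal floors let falls appear larger than rises, so both tissues were also held to the floor of 0.247 CPM. The numbers were then 422 higher and 1011 lower at 64-fold, and 8 higher and 117 lower at 1024-fold. With total counts alone as the scale and a common floor, 928 were higher and 821 lower at 64-fold, and 206 higher and 315 lower at 256-fold.

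The 1625 genes that fell at least 64-fold took 0.113% ± 0.00395 of counts in germinating seed and 55.3% ± 0.303 in 50 DPA seed. The 744 genes that rose as far took 4.13% ± 0.0752 in germinating seed and 0.00760% ± 1.99e-05 in 50 DPA seed. Most of the germinating seed pool lay in smaller changes. Genes that rose 2-fold to 4-fold took 25.8% ± 0.0462 of its counts, and those that rose 4-fold to 16-fold took 18.5% ± 0.0429 (SD, n = 2). The 100 genes with the highest means in 50 DPA seed were all lower in germinating seed, by a median of 1985-fold. Among the 100 genes highest in germinating seed, 95 were higher there and 1 was lower, with a median difference of 3.76-fold. The genes abundant in 50 DPA seed had a median rank of 35503 in germinating seed, with 1 of them among its 1000 most abundant genes. The genes abundant in germinating seed had a median rank of 779 in 50 DPA seed, where 59 were among the first 1000. Both lists were picked on these libraries, so their directions are descriptions.

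**Figure D3:**
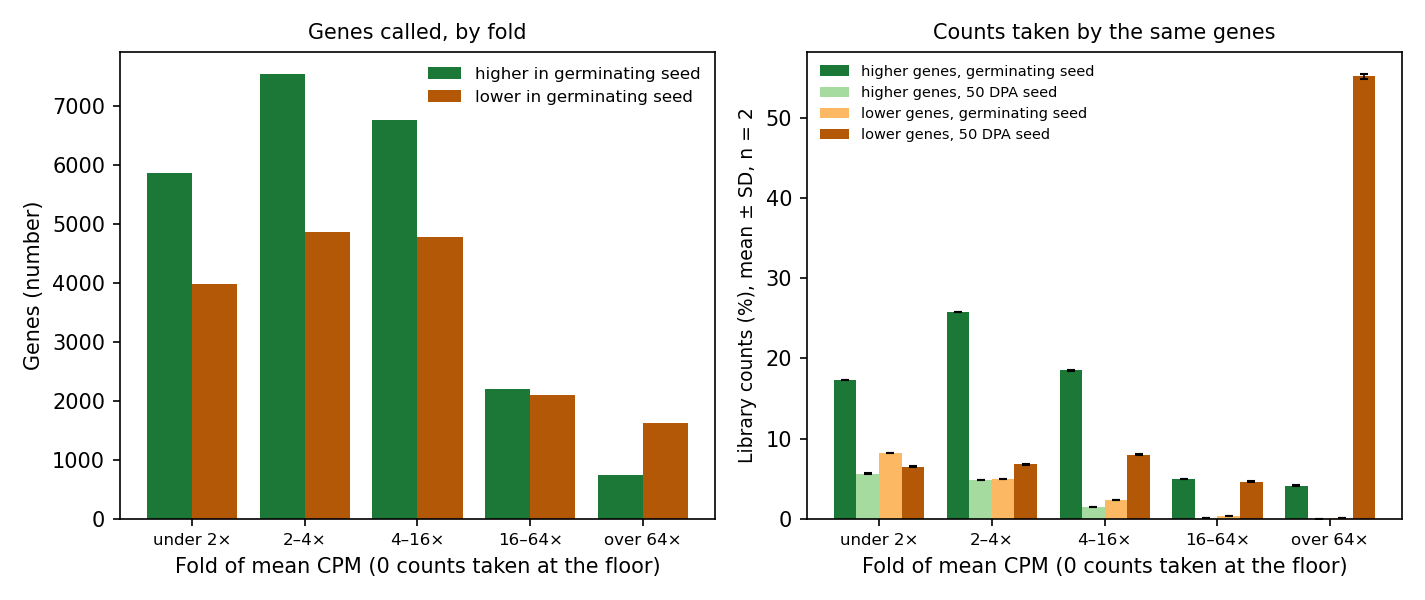
Left, number of genes called higher or lower in germinating seed (edgeR, adjusted p under 0.05) by the fold between tissue means. Where 0 counts were taken at the floor, the fold is a lower bound if the other mean lies above that floor. Called genes whose other mean lies below it were placed by the size of the ratio, whatever its direction, which is no lower bound. Right, share of library counts (%) that the same genes took in each tissue (bars: mean, error bars: SD, n = 2); genes over 64-fold lower took 0.113% in germinating seed and 55.3% in 50 DPA seed.

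The gene with the largest ratio of means among those higher in germinating seed was ZS11C02G056780, where only genes with 0 counts in both 50 DPA seed libraries were taken at the floor of 0.247 CPM. Candidates in either direction needed a mean of 50 CPM or more where they were higher, and libraries that did not overlap. It stood at 227 and 283 CPM in the germinating seed libraries, against 0.0852 and 0 CPM in the 50 DPA seed libraries. The ratio of means was 5990-fold (edgeR adjusted p = 3.71e-11). The 50 DPA seed mean rests on 1 read pair and lies below that floor, so the order of this gene and the next is not settled. Its 95% interval from exact counting error on read pairs ran from 1100-fold to 241000-fold. Dry seed had 0 counts, whereas the young leaf libraries stood at 242 and 247 CPM, the range of germinating seed.

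ZS11C01G018040 had the highest level among genes without a count in 50 DPA seed. It stood at 655 and 576 CPM in germinating seed and was without a count in 50 DPA seed, at least 2490-fold higher (edgeR adjusted p = 2.93e-11). Dry seed was also at 0 counts. Leaf stood at 3.04 and 3.76 CPM, so of the 4 tissues this transcript was abundant in germinating seed alone.

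In the other direction the largest fold was that of ZS11C09G021430. It stood at 0.0269 and 0.072 CPM in germinating seed (2 and 4 counts), against 4466 and 4234 CPM in 50 DPA seed. The level in germinating seed was 88100-fold lower, with a 95% interval of 32200-fold to 456000-fold from counting error on 3 read pairs (edgeR adjusted p = 9.51e-12). Dry seed libraries were already low at 2.49 and 1.0 CPM, and leaf had 0 counts.

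ZS11C06G001410 was the most abundant transcript of 50 DPA seed without a count in germinating seed. It had 0 counts in both germinating seed libraries and 1394 and 1360 CPM in 50 DPA seed, at least 14600-fold lower (edgeR adjusted p = 4.16e-11). Dry seed held 0.255 and 0 CPM and leaf had 0 counts. Both falling transcripts were thus at or below 2.49 CPM in dry seed as well.

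**Figure D4:**
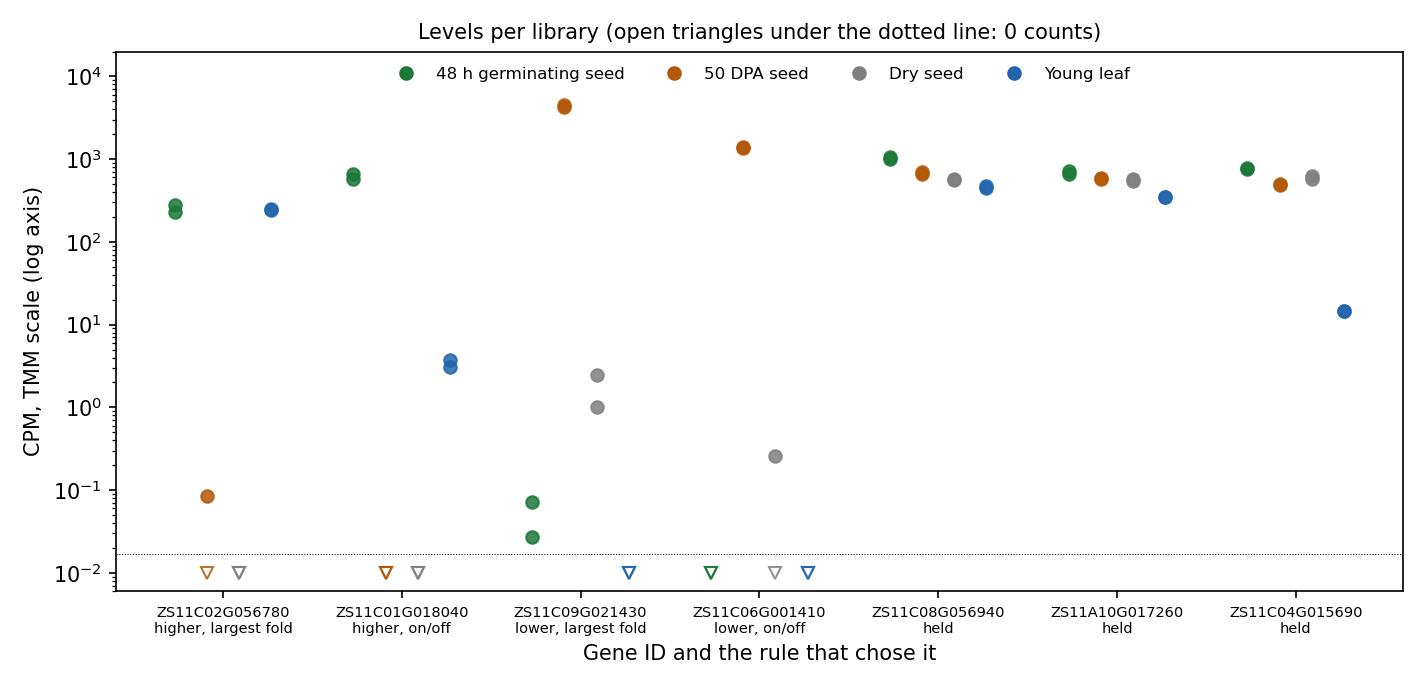
Level of the genes named in the text in each library (CPM on the TMM scale, logarithmic axis), with 2 points per tissue, and open triangles under the dotted line for 0 counts. The 2 higher and 2 lower genes are separated by more than 1000-fold between germinating and 50 DPA seed, whereas the 3 held genes lie between 488 and 1056 CPM in both tissues.

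With the higher and lower genes named above included, 98 genes with at least 50 CPM rose 256-fold or more and 439 fell as far. Of these, 39 and 43 had 0 counts in the tissue where they were lower and were taken at the unequal floors. With both tissues held to the floor of 0.247 CPM and no minimum level, 87 rose and 407 fell as far. The 98 genes that rose had a median of 95.0 CPM in germinating seed and 0.0426 CPM in 50 DPA seed, the latter below that floor. Dry seed had 0 counts for 71 of the 98 (72.4%), against 4.26% of all 3026 genes with at least 50 CPM in germinating seed. In leaf 58 of the 98 (59.2%) reached 1 CPM in both libraries, against 96.8% of the 3026 genes. The 439 genes that fell had a median of 0.213 CPM in germinating seed and 230.0 CPM in 50 DPA seed. Together they took 0.0432% ± 0.00162 and 50.5% ± 0.261 of the counts of these tissues (SD, n = 2). In dry seed 335 of the 439 (76.3%) reached 1 CPM in both libraries, against 92.97% of all 3145 genes with at least 50 CPM in 50 DPA seed. Their median in dry seed was 32.6 CPM, against 67.1 CPM for those 3145 genes. Leaf had 0 counts for 226 of the 439 (51.5%), against 8.49% of the 3145 genes, and 56 (12.8%) reached 1 CPM there, against 81.7%. Both sets were chosen for a large change between tissues, and the backgrounds were not. These gaps are therefore partly fixed by how the sets were made. Both sets were spread over all 19 chromosome prefixes of the IDs, with at most 8 of the 98 and 44 of the 439 under 1 prefix.

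On/off genes were defined by 0 counts in both libraries of one tissue and at least 1 CPM in both of the other. By this definition 1692 genes (1.6% of 106059) were on in germinating seed and without counts in 50 DPA seed. The reverse held for 541 genes (0.51%). Most were weakly expressed. The 1692 genes had a median of 2.86 CPM in germinating seed, with 284 at 10 CPM or more and 15 at 100 CPM or more. The 541 genes had a median of 4.34 CPM in 50 DPA seed, with 158 at 10 CPM or more and 16 at 100 CPM or more. They took 1.99% ± 0.0468 of germinating seed counts and 0.734% ± 0.0303 of 50 DPA seed counts in the tissue where each set was on. The numbers moved with the limits chosen. With off set at under 0.25 CPM in both libraries of either tissue, they were 2944 and 1993, and with on set at 5 CPM they were 504 and 231. The second set held 823 genes without germinating seed library 1 and 694 without library 2, where 0 counts were then required in a single library. The 4 libraries differed in depth, and the part of depth in these numbers was not tested.

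Dry seed and leaf levels took no part in this definition, apart from their part in the TMM scale. Both sets were chosen for 0 counts in 1 tissue, and the backgrounds were not. Of all genes on in germinating seed, 67.9% were on in both dry seed and leaf. For all genes on in 50 DPA seed this share was 72.1%. The gaps below are therefore partly fixed by how the sets were made. Of the 1692 genes on in germinating seed, 1272 (75.2%) had 0 counts in dry seed too and 51 (3.01%) reached 1 CPM in both dry seed libraries. Among all 39503 genes on in germinating seed, 8.08% had 0 counts in dry seed and 72.1% reached 1 CPM in both dry seed libraries. In leaf, 792 of the 1692 (46.8%) reached 1 CPM, against 88.7% of all genes on in germinating seed. Thus 873 of them (51.6%) were on neither in dry seed nor in leaf, compared with 7.03% of all genes on in germinating seed. Of the 541 genes on in 50 DPA seed, 451 (83.4%) were on neither in dry seed nor in leaf, compared with 6.74% of all 37047 genes on in 50 DPA seed. Dry seed had 0 counts for 373 of the 541 (68.9%), and 44 (8.13%) reached 1 CPM. Among all 37047 genes on in 50 DPA seed, these shares were 4.73% and 78.8%.

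Since most on/off genes were low where they were on, the same was counted at a higher level. The same limit holds there, since the sets were still chosen for 0 counts in 1 tissue. Among genes with at least 10 CPM in the tissue where they were on, leaf reached 1 CPM for 142 of 284 genes on in germinating seed (50.0%), against 96.6% of all genes at that level. Dry seed had 0 counts for 108 of 158 genes on in 50 DPA seed (68.4%), against 2.57% of all genes at that level. Of 1690 genes on in germinating seed with a chromosome prefix, 134 (7.93%) had an adjacent ID in the same set, where the set makes up 1.60% of all such genes, and the longest run held 5 IDs. In the set of 539 on in 50 DPA seed with a chromosome prefix, 18 had such a neighbour (3.34%), where the set makes up 0.511%. These set shares are not the neighbour shares expected without clustering. An ID can have a neighbour on either side, and the shares also count IDs that were not tested. Among the genes held within 2-fold (defined below), 16.2% had such a neighbour, where they make up 6.95%. Adjacent genes can be near-identical copies that share reads, and the handling of such reads is not given in the sources used here.

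**Figure D5:**
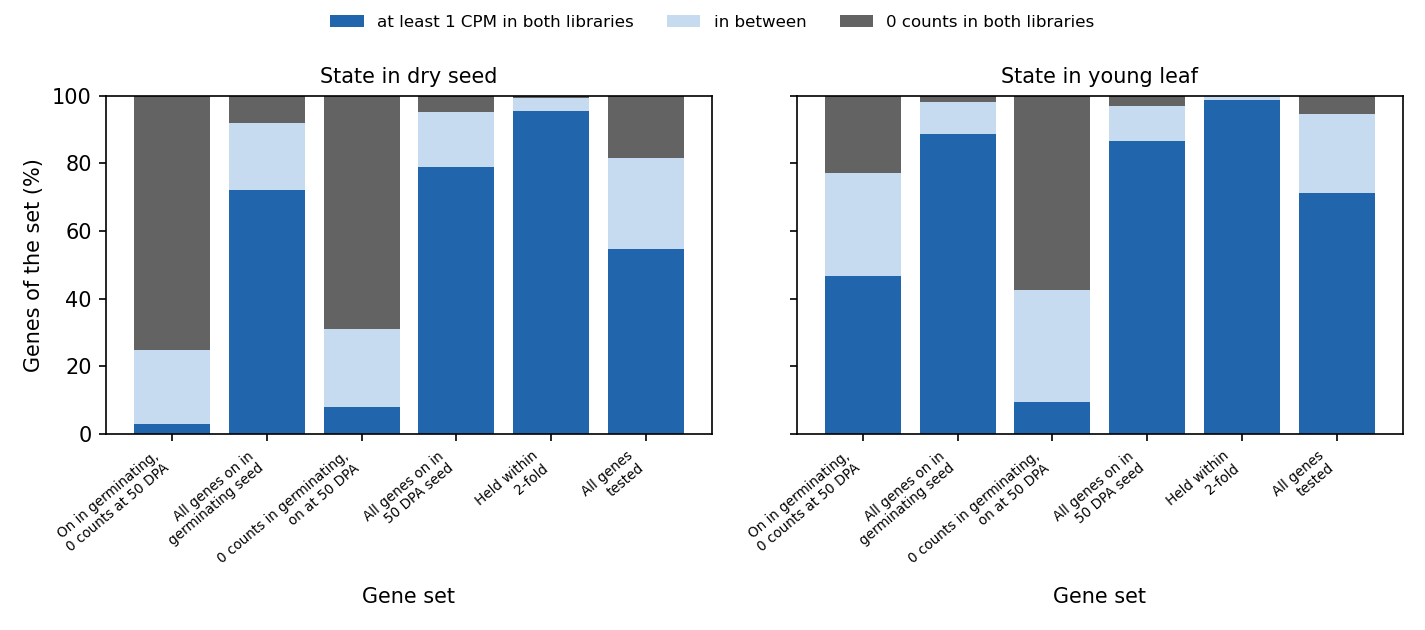
State in dry seed (left) and young leaf (right) of gene sets chosen on germinating and 50 DPA seed, as the share of each set (%) with at least 1 CPM in both libraries, with 0 counts in both, or in between. Genes on in germinating seed and without counts at 50 DPA reached 1 CPM in leaf for 46.8% and in dry seed for 3.01%, and genes without counts in germinating seed for 9.43% and 8.13%.

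Some transcripts were held at like levels in both tissues. A gene was called held when 2 one-sided edgeR quasi-likelihood tests placed its change inside 2-fold in either direction (larger adjusted p under 0.05). This was met by 7337 genes, 12.4% of those tested. A further 13696 genes (23.2%) were called neither changed nor held, so their change was not resolved at this depth and with 2 libraries. The held genes had a median of 13.9 CPM in germinating and 13.9 CPM in 50 DPA seed, and the largest change among them was 0.77 on the log2 scale. The test of no change still called 1247 of them higher and 1195 lower. They took 23.0% ± 0.0632 of germinating seed counts and 11.5% ± 0.124 of 50 DPA seed counts (SD, n = 2). Held genes made up 5.07% of genes with a mean of 1 to 5 CPM over both tissues, 28.7% of those with 10 to 50 CPM and 14.4% of those over 100 CPM. Below 1 CPM 3 of 16095 genes were held, where the median SE of a log2 change was 0.99.

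The held set rested on the scale. With total counts alone 4587 genes were held, of which 857 were among the 7337, and 581 genes (7.92%) were held on all 4 scales tried. With DESeq2 size factors 6602 of the 7337 were held again. The count was 3917 without germinating seed library 1, 4136 without library 2, 4542 without 50 DPA seed library 1 and 4560 without library 2.

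The 3 most abundant held genes were slightly higher in germinating seed, and the test of no change called all 3. ZS11C08G056940 stood at 1056 and 994 CPM in germinating seed and at 660 and 698 CPM in 50 DPA seed, a log2 change of 0.59 ± 0.077 (SE; edgeR adjusted p = 0.00249 for lying within 2-fold). Its level was 565 ± 16.4 CPM in dry seeds and, in leaf, 463 ± 16.2 CPM. ZS11A10G017260 stood at 727 and 662 CPM in germinating seed and at 571 and 590 CPM in 50 DPA seed, a log2 change of 0.26 ± 0.078 (SE). Dry seed had 555 ± 23.9 CPM of it, and leaf 350.2 ± 2.30 CPM. Over the 4 tissues the means lay between 463 and 1025 CPM for the first gene and between 350.2 and 694 CPM for the second. ZS11C04G015690 was low in leaf. It stood at 788 and 766 CPM in germinating seed, at 488 and 507 CPM in 50 DPA seed and at 606 ± 31.8 CPM in dry seed, but at 14.5 ± 0.0529 CPM in leaf. With total counts alone none of the 3 was held, and their log2 changes were 1.56, 1.22 and 1.61 in the order given.

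The held call compared germinating with 50 DPA seed only. Dry seed and leaf libraries still entered the filter, the scale and the estimate of the spread behind it. In a fit of the 4 compared libraries alone 8640 genes were held, and 6963 of the 7337 were held again. Of the 7337, 5120 (69.8%) had a leaf mean within 2-fold of the geometric mean of germinating and 50 DPA seed, and 4227 (57.6%) had such a dry seed mean. Over all genes tested these shares were 43.4% and 35.5%, but that background was not matched on level. It includes 16095 genes with a mean below 1 CPM, of which 3 were held. Genes with 0 counts in germinating or 50 DPA seed also belong to it and cannot meet this range. The gaps are therefore partly fixed by how the sets were made. The leaf and dry seed means were both within this range for 42.6% of held genes and 21.5% of all genes tested. Dry seed departed from it by over 4-fold upward for 485 held genes and downward for 570, with 0 counts for 51.

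Dry seed lies between the compared stages in development, and its level was placed against both means, with no test. A dry seed level equal to either mean was placed as between. This includes genes without counts in both dry seed and the lower tissue. Of the 15125 genes more than 2-fold higher in germinating than in 50 DPA seed, dry seed lay between both means for 8418 genes (55.7%), below both for 5484 (36.3%) and above both for 1223 (8.09%). Of the 11144 genes more than 2-fold lower in germinating seed, dry seed lay between for 5557 (49.9%), above both for 2720 (24.4%) and below both for 2867 (25.7%). Dry seed had no counts for 4840 of the 15125 genes and for 1820 of the 11144 genes. Where the lower tissue had no counts either, such a gene is a tie placed as between. These ties were not counted apart, so the between shares are not shares of genes with an intermediate dry seed level. Whether a single harvest supplied these stages is not stated in the labels.

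By chromosome prefix of the IDs, 40.8% ± 1.40 of tested A genes (SD, 10 prefixes) and 37.7% ± 1.28 of tested C genes (SD, 9 prefixes) were higher in germinating seed. The ranges, 38.6% to 43.0% and 36.3% to 40.01%, overlapped. Lower genes made up 29.7% ± 0.913 of A and 29.1% ± 0.996 of C genes, and held genes 12.8% ± 0.516 and 12.0% ± 0.980. Genes on in germinating seed without a count at 50 DPA made up 3.14% ± 0.376 of tested A and 2.60% ± 0.312 of tested C genes. No test was run on these values, and a larger share of A than of C genes passed the filter on low counts, at 62.1% ± 2.57 against 51.2% ± 2.19.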

How the data were processed

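Counts per gene were deposited by the authors as whole numbers for 8 libraries of 4 tissues. The tools FastQC, HISAT2, SAMtools and edgeR are listed in the submitters' processing notes. Their versions, the read counter, the build and the annotation were not given in the sources used here. One line inside the table holds alignment file names instead of a gene, and it was dropped.

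Genes were kept by filterByExpr, scaled by TMM and tested with robust edgeR quasi-likelihood fits (edgeR 4.0.16, R 4.3.3) on all 8 libraries, with 1 mean per tissue, 2-sided, and Benjamini-Hochberg adjustment over 59062 genes. Held genes came from the same fit with the change set to 2-fold up and 2-fold down through the offsets. The script was tested on simulated data. That simulation changed few genes, as many up as down, so it could not test the scale where most genes change. For named genes, the rule took per direction the largest fold (at least 50 CPM in the higher tissue, no overlap of libraries) and the on/off gene of highest level, and the 3 most abundant held genes. The comparison, sets and rules were chosen with earlier results of these data known. Intervals and floors cover counting error only, since reads without molecular identifiers are not independent molecules. Near-identical copies are common in this genome, so the level of a single ID is uncertain where reads were shared. Alternatives covered scaling (DESeq2 1.42.0 size factors, upper-quartile factors, total counts), filter, tool, samples in the fit, replicate block, halved counts, on/off limits and omission of each library.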

Additional observations from a re-analysis of the deposited data

How the results depend on the processing

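Counts of changed, more than 2-fold changed and held genes stayed within 1.5 times their main values under DESeq2 size factors, upper-quartile factors, no filter, a fit of the 4 libraries alone, the replicate block and halved counts. With total counts alone they were 35024 higher, 10207 lower, 26004 and 7040 by more than 2-fold, and 4587 held. Relative to the TMM scale, total counts place germinating seed higher against 50 DPA seed. TMM scales libraries as if most genes were unchanged, whereas 68.5% of genes tested were called changed. Which scale is nearer to the truth was not tested. The share of changed genes that were higher was 54.6% with DESeq2 size factors, 77.4% with total counts alone, 59.4% with upper-quartile factors, 55.1% with 4 libraries and 53.7% by DESeq2's own test, and 54.6% to 57.1% without 1 library. Omitting 1 library gave 3917 to 4560 held genes and 605 to 823 genes on in 50 DPA seed only; these fits hold fewer samples, and a lone library needs only 1 value at 0. With off under 0.25 CPM the on/off sets held 2944 and 1993 genes, and with on at 5 CPM 504 and 231. With the replicate block 21786 genes were higher and 16512 lower. Deviations of same-numbered germinating and 50 DPA seed libraries correlated at -0.0080 over genes. That value cannot show whether libraries of the same number share a harvest or a batch. Of 67 alternative values of named genes 64 kept direction and call; the exceptions were the 3 held genes with total counts alone. The 2 higher and 2 lower genes were picked for extreme change, which made this nearly certain.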
